A study of Mus musculus with 24 samples.

Results

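The comparison described here is that of unoperated triceps surae muscle from mice lacking MuRF1 with the same muscle from wild type mice at the day 14 time point. It rests on 6 of the 24 arrays of the study, 3 per genotype, and all 11317 genes with a detected probe were tested in it. Triceps surae is the calf muscle group. All mice were labelled C57/Bl6 and 6 months old. The knockout group was labelled MuRF1 knockout, with no cell type or promoter named, and the wild type group carried no named allele. The controls were littermates housed in parallel without surgery, so "14 day" dates these muscles by the denervated animals they accompanied. A further 6 control arrays dated to day 3 and 6 arrays of muscle 14 days after unilateral sciatic nerve resection, again 3 per genotype, are used here only as comparisons. Whether the 3 samples of each group were taken from different animals is not stated, and the p-values therefore rest on sample-to-sample spread that may be partly technical. The labels give neither the embryonic stem cells nor the number of backcrosses behind the knockout line.

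MuRF1 is a RING finger E3 ubiquitin ligase of striated muscle that sits at the sarcomere and marks contractile and other proteins for breakdown by the proteasome. Its gene, Trim63, is best known as a gene induced in atrophy, where FoxO transcription factors act on its promoter together with glucocorticoid receptor, and where myogenin has been placed upstream after denervation. MuRF1 can bind its relatives MuRF2 (Trim55) and MuRF3 (Trim54), and in resting muscle its own transcript is present at a moderate level.

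The promoters of Trim63, of Pnrc2, which fell almost equally on the same chromosome, and of Slc30a2, which is the next annotated gene after Trim63 and had the largest rise, are shown first. Each window runs from 250 bases before to 50 bases after the annotated start, 5′ to 3′ on the gene's own strand, from RefSeq on GRCm38.p6. Capitals mark CAGCTG (an E box of the kind myogenic factors bind), GTAAACA or its reverse complement TGTTTAC (a FoxO element) and TATAAA, searched on both strands. The window of Trim63 is chr4:134314870-134315169 on the plus strand, that of Pnrc2 is chr4:135873797-135874096 on the minus strand, and that of Slc30a2 is chr4:134343216-134343515 on the plus strand.
Trim63: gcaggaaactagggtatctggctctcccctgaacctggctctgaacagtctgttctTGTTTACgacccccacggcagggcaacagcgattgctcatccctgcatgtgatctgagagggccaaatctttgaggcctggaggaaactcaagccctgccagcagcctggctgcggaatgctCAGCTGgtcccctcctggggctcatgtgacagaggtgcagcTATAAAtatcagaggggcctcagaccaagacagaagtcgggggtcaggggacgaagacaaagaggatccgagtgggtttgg
Pnrc2: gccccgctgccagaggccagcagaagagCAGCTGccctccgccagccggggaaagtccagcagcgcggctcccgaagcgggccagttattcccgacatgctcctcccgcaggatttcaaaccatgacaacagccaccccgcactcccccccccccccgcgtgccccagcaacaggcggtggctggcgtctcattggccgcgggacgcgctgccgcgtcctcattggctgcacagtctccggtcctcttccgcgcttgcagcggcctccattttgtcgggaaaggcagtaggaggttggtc
Slc30a2: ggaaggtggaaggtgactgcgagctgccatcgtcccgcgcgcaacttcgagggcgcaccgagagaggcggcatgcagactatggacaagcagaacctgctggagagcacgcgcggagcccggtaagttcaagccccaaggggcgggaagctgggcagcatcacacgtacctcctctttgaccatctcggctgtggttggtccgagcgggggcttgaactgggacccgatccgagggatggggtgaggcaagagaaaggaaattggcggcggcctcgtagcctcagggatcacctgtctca
Trim63 held all 3 motifs, with its E box starting at base 179 of the window. Pnrc2 held only an E box, starting at base 29, and Slc30a2 held none of the 3. Among 32851 mouse promoter windows of this length, CAGCTG occurred in 16.3%, the FoxO element in 3.65% and TATAAA in 13.6%.

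Values below are log2 intensities after background correction and quantile normalization, given array by array in the order of the labelled replicates. They belong to 1 probe each, so they compare samples for a gene and not genes with each other. Between 16875 and 17882 of the 46632 probes were detected on each of the 6 arrays, and the arrays of a group correlated with each other at 0.988 to 0.992. The 9 tested genes that define myofibres, among them Ckm, Acta1, Ttn and Ryr1, were detected on all 6 arrays and none of them passed the test. Several were very bright, with Acta1 between 15.82 and 16.05 and Tnnt3 between 15.90 and 16.03. A saturated signal would hide a difference, and saturation was not tested. The labels give no sex. Of the probes of sex-linked genes, 1 of Xist was detected on all 24 arrays and another on 1 array, those of the Y-linked Eif2s3y and Kdm5d on none, and those of the Y-linked Uty on none except 1 probe, detected on all 24.

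Trim63 was low in every knockout sample. Wild type arrays read 10.29, 10.27 and 10.36, and knockout arrays read 5.69, 5.69 and 5.78, all 3 of which were still scored as detected. The groups were far apart, and the difference was -4.59 ± 0.17 (SE, n = 3 per group), 24.1-fold lower, with an adjusted p of 6.32e-14 by limma. It was -4.45 in the day 3 controls and -4.40 in denervated muscle at day 14. The knockout values were low, so the size of the fall depends on the offset of the background correction. With offset 50 the day 14 difference was -3.91, against -4.59 with the offset of 16 used here. Where the single probe of Trim63 lies relative to the deleted part is not given in the sources used here. The relatives of MuRF1 moved little or were not measured. Trim54 read 13.06, 13.23 and 12.97 in wild type and 13.48, 13.43 and 13.44 in knockout, a difference of 0.37 with an adjusted p of 0.0789 by limma, and no probe of Trim55 was kept.

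Trim63 included, 624 genes (5.51% of those tested) differed between the genotypes at an adjusted p under 0.05, 333 of them higher (2.94%) and 291 lower (2.57%) in knockout. Most differences were modest. The median size among these genes was 0.65 on the log2 scale, or 1.57-fold, and 58 changed 2-fold or more, 18 of them higher and 40 lower. The 3 knockout values lay beyond all 3 wild type values for 615 of the 624, and the genotypes did not overlap in 32.4% of all genes tested (18.3% higher and 14.1% lower). The median difference of all 11317 genes was 0.02. The number was 258 with arrays centred on their medians only, 340 in a fit of the 6 arrays alone, 34 with each array's relation to gene span, described further below, as a covariate, and 1427 with array weights. It was 236 and 150 without wild type replicates 1 and 2, and 253, 182 and 207 without knockout replicates 1, 2 and 3.

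The gene nearest to Trim63 in size of change was Pnrc2, an adaptor of the mRNA decapping and nonsense-mediated decay machinery that was first described as a nuclear receptor coactivator. It read 11.09, 10.95 and 11.08 in wild type and 6.12, 6.50 and 6.77 in knockout. The groups were as far apart as those of Trim63, with a difference of -4.58 ± 0.16 (SE), 23.8-fold lower, and an adjusted p of 4.52e-14 by limma. Its difference was -4.94 in the day 3 controls and -4.39 in denervated muscle. Pnrc2 lies on chromosome 4, as does Trim63, and was the 20th tested gene from it.

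Several other genes of chromosome 4 followed. Padi2, a peptidylarginine deiminase that converts arginine to citrulline in proteins, read 7.71, 8.45 and 8.47 in wild type and 7.26, 5.32 and 5.04 in knockout, with only 1 knockout array above background. Its knockout replicate 1 stood close to wild type, and the difference was -2.34 ± 0.37 (SE), 5.05-fold lower, at an adjusted p of 0.00186 by limma. Eya3, a transcriptional coactivator with phosphatase activity, read 8.82, 8.22 and 8.58 against 6.56, 6.67 and 6.47. E2f2, a cell cycle transcription factor, read 8.14, 7.91 and 7.70 against 6.15, 5.91 and 6.46. Eya3 and E2f2 were 3.94-fold and 3.35-fold lower at adjusted p of 3.23e-06 and 3.78e-05 by limma. Genes named for the size of their change were drawn only from those without overlap. That the genotypes did not overlap in these 2 was therefore fixed by the choice. In each of these 2 genes a second, dimmer kept probe showed almost no difference, 0.09 for Eya3 and 0.04 for E2f2. Gpn2, a GTPase involved in RNA polymerase assembly, read 9.49, 9.76 and 9.76 against 8.27, 8.25 and 8.38, 2.58-fold lower at an adjusted p of 6.2e-07.

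**Figure D1:**
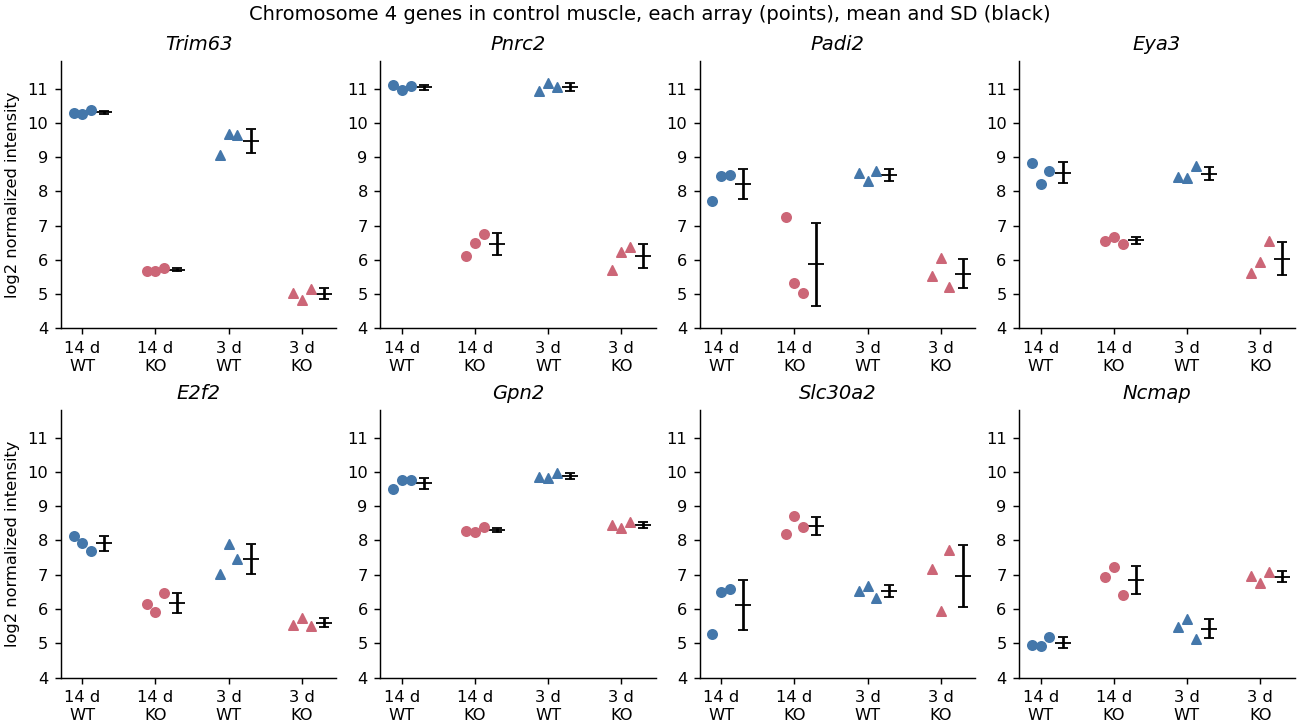
Log2 normalized intensity of 8 genes of chromosome 4 in each control array of day 14 (circles) and day 3 (triangles), wild type (WT) in blue and knockout (KO) in red, with each group's mean and SD in black (n = 3). Trim63 and Pnrc2 fell to between 5.69 and 6.77 in the 3 knockout arrays of day 14, Padi2 of knockout replicate 1 stayed at 7.26, and Slc30a2 and Ncmap were higher in knockout.

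The largest rises also lay there. Slc30a2, a zinc transporter of vesicles, read 5.28, 6.49 and 6.58 in wild type and 8.17, 8.71 and 8.39 in knockout. Of the wild type arrays 2 detected the probe. The difference was 2.31 ± 0.34 (SE), 4.96-fold higher, at an adjusted p of 0.00111 by limma. In the day 3 controls it was 0.44 and did not pass, and the test of the change between days gave an adjusted p of 0.0978. Ncmap, a membrane protein of Schwann cell myelin, read 4.96, 4.91 and 5.20 in wild type, below background on every array, and 6.92, 7.22 and 6.41 in knockout, where every array detected it. It was at least 2.32-fold higher, with a fitted difference of 1.83 at an adjusted p of 3.23e-06. The day 3 controls gave 1.51, with an adjusted p of 5.94e-05, and in denervated muscle Ncmap was below background on all 6 arrays.

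Of the genes around Trim63 on the chromosome, most did not pass at day 14. The annotation lists 30 genes as the nearest 15 on each side, of which 17 were measured. Of the 17, Slc30a2 rose and Paqr7, a membrane progestin receptor, fell, where 5.51% of all genes passed. Paqr7 read 7.74, 7.99 and 7.51 against 6.87, 6.89 and 6.87, a difference of -0.87 with an adjusted p of 0.00424 by limma. Selenon, the selenoprotein of the endoplasmic reticulum that is mutated in a human congenital myopathy, read 8.94, 9.17 and 9.33 against 9.62, 9.60 and 9.50. Its groups did not overlap, but the difference of 0.43 missed the threshold with an adjusted p of 0.0608, whereas its differences of 0.79 in day 3 controls and 0.85 in denervated muscle passed. Cd52, a surface antigen of leukocytes, gave -1.14 with an adjusted p of 0.0625, and -1.23 in denervated muscle, which passed. Pafah2 and Cep85 gave -0.58 and -0.44 in day 14 controls and -0.76 and -0.67 in day 3 controls, without passing. In denervated muscle both passed, at -1.37 and -1.27. Cnksr1 passed there in the other direction, at 0.84, against -0.22 in day 14 controls.

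Over a wider stretch the share of changed genes was above that of all genes. Counting 15, 30 and 60 tested genes to each side of Trim63, 4 of 30, 9 of 60 and 19 of 120 passed at day 14, or 13.3%, 15% and 15.8%, against 5.51% of all genes. Of the last 19, 14 were lower and 5 higher. Chromosome 4 as a whole held 61 of the 624, or 8.87% of its 688 tested genes, and the other chromosomes ranged from 3.34% (X) to 6.82% (11).

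**Figure D2:**
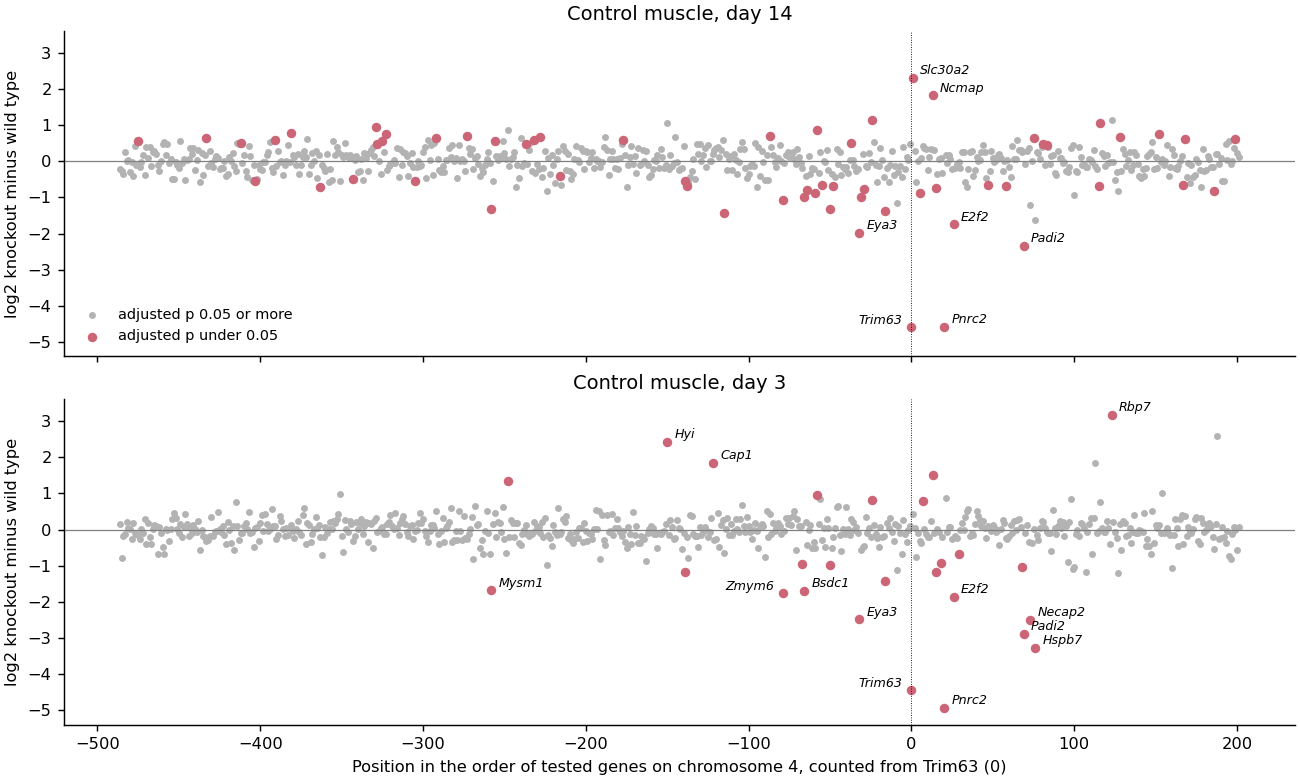
Log2 difference of knockout minus wild type for the 688 tested genes of chromosome 4, placed in their order along the chromosome counted from Trim63 at 0, in day 14 controls (top) and day 3 controls (bottom). Red points passed at an adjusted p under 0.05 (61 and 26 genes), and the largest differences at day 14 stood between Eya3 (position -32) and Padi2 (position 69).

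The day 3 controls gave the same comparison in 6 other arrays. There 59 genes (0.521%) passed, 22 higher (0.194%) and 37 lower (0.327%), and 26 of these were on chromosome 4. Of the 624 genes of day 14, 18 passed in the same direction at day 3 and none passed in the opposite one, which is 18 of the 59. Of these 18, 13 were lower and 5 higher, and 15 lay on chromosome 4, which holds 6.08% of the genes tested. The chromosome 4 genes lower at both days were Trim63, Pnrc2, Padi2, Eya3, E2f2 and Gpn2, and also Serinc2, a serine incorporator (-1.32 at day 14), Mysm1, a histone H2A deubiquitinase (at least 1.601-fold lower, not detected on any knockout array), Zmym6 (-1.07), Bsdc1 (-0.999), the magnesium transporter relative Nipal3 (-0.74) and Zfp691 (-0.55). Those higher were Ncmap, Ahdc1, an AT-hook protein (1.13), and Txlna, a syntaxin-binding protein (0.86). The 3 on other chromosomes were Wdfy1 (1.12) and Cep170 (1.02), both on chromosome 1, and Ankrd1, a titin-associated stress protein (-0.65), on chromosome 19. In denervated muscle at day 14, another 6 arrays, 12 of the 18 passed in the same direction, 11 of them on chromosome 4.

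Knockout arrays did not always resemble each other at genes farther along the chromosome. Zmym6 read 7.59, 7.14 and 7.73 in wild type and 5.97, 7.38 and 5.91 in knockout, so that knockout replicate 2 lay within the wild type range. Bsdc1 showed the same arrangement, with 10.62, 10.20 and 10.58 against 9.12, 10.21 and 9.08. On the other side of Trim63, Necap2 and Hspb7, singled out after their values were seen, split the arrays in another way, and Hyi, singled out likewise, on the first side did so too. Necap2, an adaptor of clathrin-coated vesicles, read 10.31, 10.09 and 10.22 in wild type and 9.79, 9.78 and 7.44 in knockout at day 14, and 8.21, 8.30 and 7.76 in the 3 knockout arrays of day 3. Hspb7, a small heat shock protein of heart and skeletal muscle, read 12.04, 11.89 and 11.29 against 11.04, 10.96 and 8.36 at day 14, and 7.66, 7.25 and 7.47 in knockout at day 3. Only knockout replicate 3 of day 14 came near the day 3 knockout level at these 2 genes, and neither passed at day 14 (adjusted p of 0.0627 and 0.186 by limma), while both passed at day 3. Hyi, a relative of bacterial hydroxypyruvate isomerases, read 8.26, 10.03 and 8.14 in wild type and 9.56, 10.003 and 10.09 in knockout at day 14, so here a wild type array, replicate 2, stood with the knockouts.

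**Figure D3:**
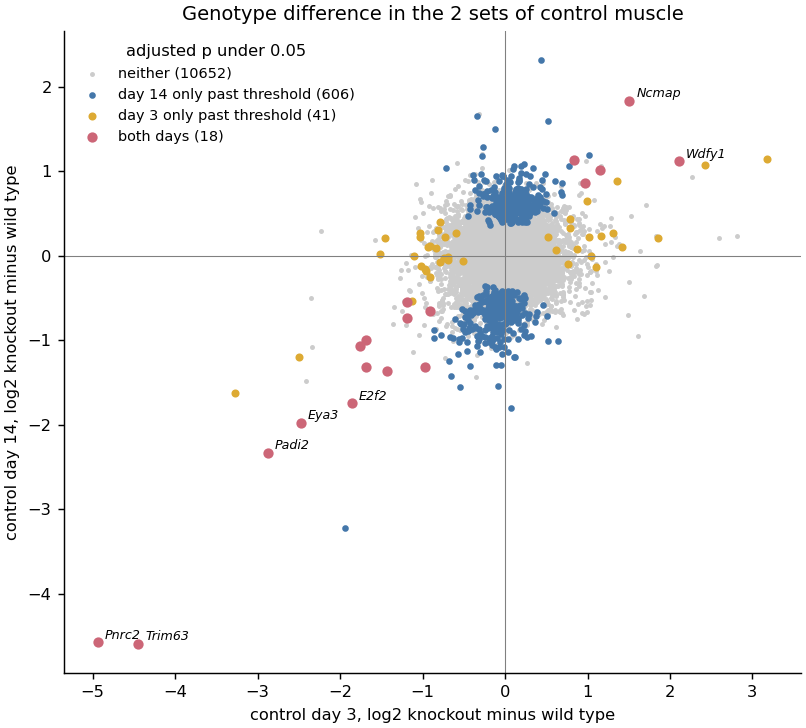
Log2 difference of knockout minus wild type for each of the 11317 genes in day 3 controls (horizontal axis) and day 14 controls (vertical axis), which share no array, coloured by which of them passed at an adjusted p under 0.05. The 18 genes that passed on both days lie along a rising line from Pnrc2 and Trim63 to Ncmap and Wdfy1, whereas the 606 that passed at day 14 only lie mostly near 0 on the day 3 axis. The 18 were chosen for passing in the same direction on both days, which by itself places them at lower left or upper right. The 606 were chosen for passing at day 14 and not at day 3, which by itself draws them towards 0 on the day 3 axis.

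Most of the 624 genes did not pass in the day 3 controls. The knockout arrays of day 3 correlated with each other at 0.974 to 0.984, below the 0.988 to 0.992 of the day 14 controls. With array weights 1021 genes passed at day 3 and 121 on both days. The 333 higher genes had a median difference of 0.62 at day 14 and of 0.09 at day 3, and the 291 lower genes had medians of -0.70 and -0.12. These genes were chosen by their day 14 values, which by itself draws their medians towards 0 in other arrays. The sign was the same on both days for 435 of the 624, or 69.7%, against 51.7% of all genes. Over all 11317 genes the differences of the 2 days had a Pearson correlation of 0.147 and a Spearman correlation of 0.064, given as a description across genes, which are not independent replicates. When the change between days was tested directly, 5 genes passed (0.0442%), and 1893 had an unadjusted p under 0.05. Ddah1, which degrades the nitric oxide synthase inhibitor asymmetric dimethylarginine, read 8.18, 8.07 and 8.10 against 9.26, 9.41 and 9.21 at day 14, a difference of 1.18 (adjusted p of 0.000519 by limma), and differed by -0.29 at day 3. The other 4 were Pabpn1, the nuclear poly(A)-binding protein (-0.71 at day 14 and 0.38 at day 3), Nup88, a nuclear pore protein (0.39 and -0.79), Vps26b, a retromer subunit (0.47 and -0.45), and Cap1, an actin-binding protein on chromosome 4 (0.21 and 1.85).

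Denervated muscle of the same day gave 783 genes (6.92%), 306 higher (2.7%) and 477 lower (4.21%) in knockout. Of the 624 genes of control muscle, 24 passed there in the same direction and 57 in the opposite one. Only 29.3% had the same sign, against 41.7% of all genes. Medians of the higher and lower genes of control muscle were -0.17 and 0.09 after denervation. The test of the difference between denervated and control muscle, which uses the same control arrays, passed for 1415 genes (12.5%). Kcnq5, a voltage-gated potassium channel subunit, was a gene outside chromosome 4 that stayed low. It read 8.99, 7.55 and 8.37 in wild type and 5.15, 4.99 and 5.10 in knockout, below background on all 3 arrays and therefore at least 6.41-fold lower (adjusted p of 0.0125 by limma), with differences of -1.94 in day 3 controls, which did not pass, and -3.49 in denervated muscle, which did.

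After Kcnq5, the largest fall of a named gene outside chromosome 4 was that of Gsn, gelsolin, which severs actin filaments and is abundant in fibroblasts. It read 10.79, 10.42 and 9.85 against 8.67, 8.25 and 8.74, a difference of -1.80 ± 0.37 (SE), 3.48-fold lower, at an adjusted p of 0.0103 by limma. Its difference was 0.08 in the day 3 controls. Arf5, a small GTPase of the Golgi, read 10.73, 10.98 and 10.66 against 9.62, 9.33 and 9.53, 2.46-fold lower with an adjusted p of 0.00111. Btbd2 fell 2.93-fold and Psmd2, a non-ATPase subunit of the proteasome's regulatory particle, fell 2.46-fold. On chromosome 4, Pabpc4, a cytoplasmic poly(A)-binding protein, fell 2.67-fold.

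The largest rises outside chromosome 4 began with a myosin. Myh1, the myosin heavy chain of type IIx fibres, read 8.88, 8.97 and 9.80 against 10.73, 10.82 and 11.05, a difference of 1.65 ± 0.34 (SE), 3.14-fold higher, at an adjusted p of 0.00973 by limma. In the day 3 controls it differed by -0.34 and in denervated muscle by -0.33, neither of which passed. Bcat2, the mitochondrial branched-chain aminotransferase, read 8.89, 9.54 and 9.41 against 11.04, 10.97 and 9.67, with knockout replicate 3 barely above wild type, and was 2.44-fold higher. Tbc1d1, a Rab GTPase-activating protein that controls glucose transporter traffic, read 10.48, 9.47 and 9.38 against 11.16, 10.51 and 11.24 and was 2.29-fold higher. Slc25a25, a mitochondrial ATP-Mg/phosphate carrier, was 2.12-fold higher and Bcl2, an inhibitor of apoptosis, 2.09-fold. Another 3 kept probes of Bcl2 ranged from -0.40 to 0.75. The remaining large rises were Ush1c (3.03-fold), Mfap3l (2.83-fold), Vat1l (2.05-fold), Gopc (at least 1.90-fold) and Masp2, a complement protease (at least 1.55-fold), the last on chromosome 4.

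Gene groups of muscle biology held changed members at a share near that of all genes. Over 39 lists of pathways and cell type markers, 35 of 557 tested members passed (6.28%, against 5.51% of all genes), 10 higher and 25 lower, and 17 lists had none. Of 9 genes listed as developmental contractile, only Des, desmin, and Ankrd1 passed, and both fell. Both also stand on other lists, Des among smooth muscle markers and Ankrd1 among Z-disc and stress genes. The list median was -0.48, with 2 of 9 differences above 0. At day 3 that median was -0.32, and Ankrd1 and Tnnt2, cardiac troponin T, were lower. Of 16 fast fibre genes Myh1 rose and Mybpc2, fast myosin-binding protein C, fell, with 14.998, 15.07 and 15.08 against 13.96, 13.98 and 15.07, so that knockout replicate 3 stood at the wild type level. The median of that list was 0.00, and Myh4 and Myh2, the IIb and IIa myosins, differed by 0.08 and 0.00. None of 10 slow fibre genes passed (median -0.18), nor any of 15 myogenic and denervation regulators (median -0.07). Of 22 genes of the Z-disc, titin and stress signalling, Nrap rose (0.64) and Ankrd1 fell.

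In the ubiquitin and proteolysis genes, where MuRF1 itself acts, changes went in both directions. Of 19 ubiquitin ligases and adaptors linked to atrophy, Fbxo30 (MUSA1) and Traf6 rose by 0.67 and 0.57, and Klhl40, an adaptor that stabilises thin filament proteins, fell by 0.88 (15.8% of the list). Fbxo32, which encodes atrogin-1, the other classical atrophy ligase, read 11.11, 11.40 and 10.03 against 10.75, 10.45 and 10.85, a difference of -0.17 that did not pass. The list's median was 0.14. Of 30 proteasome subunits only Psmd2 passed (3.33%), and the list's median was -0.04. Among 18 autophagy and lysosome genes 2 fell and none rose (11.1%), with a list median of -0.07. Sqstm1, the autophagy receptor p62, read 13.67, 13.41 and 13.32 against 12.83, 12.72 and 12.68 and was 1.65-fold lower (adjusted p of 0.0039 by limma). Map1lc3a, an LC3 protein of the autophagosome, was 1.56-fold lower, and its second probe gave -0.86.

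Among genes of fuel handling, a glucose transporter fell, and 3 fatty acid enzymes fell at their brightest probe only. Slc2a4, the insulin-responsive glucose transporter GLUT4, read 12.55, 12.49 and 12.002 in wild type and 11.26, 11.03 and 11.18 in knockout. All knockout arrays were lower, and the difference was -1.20 ± 0.19 (SE), 2.29-fold, at an adjusted p of 0.00178 by limma, against 0.12 at day 3. Of 21 genes of fatty acid uptake and oxidation 3 fell and none rose (14.3%, against 5.51% of all genes). The list's median was -0.26, with medians of -0.31 at day 3 and -0.13 after denervation. The 3 that fell were Acot2, a mitochondrial acyl-CoA thioesterase (8.57, 7.98 and 8.39 against 7.17, 6.32 and 6.82), Acadl, the long-chain acyl-CoA dehydrogenase (10.74, 10.60 and 11.34 against 9.99, 9.96 and 9.79), and Hadh, a dehydrogenase of the same pathway (9.34, 9.34 and 9.52 against 8.57, 8.56 and 8.42). Each had a second kept probe whose difference was of the opposite sign, 0.14 for Acot2, 0.27 for Acadl and 0.23 for Hadh. Of 43 oxidative phosphorylation genes only Ndufa5 passed (-0.47, list median -0.11), and of 16 genes of the tricarboxylic acid cycle only Suclg1 (-0.51, list median 0.10), with 0.41 at its second probe. Ppp1r3c, a glycogen-targeting phosphatase subunit, rose by 0.65 among 20 genes of glycolysis and glycogen, and Perm1, a regulator of mitochondrial genes in muscle, rose by 0.61. Akt2, the insulin-signalling kinase, was higher by 0.39, but its second probe gave -0.46 and the mean of its probes gave no difference.

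At the neuromuscular synapse, 2 of 16 genes fell and 1 passed as higher below background (18.8% of the list, against 5.51% of all genes). The list's median was 0.02. Chrnb1, the beta subunit of the acetylcholine receptor, read 10.003, 9.55 and 9.83 against 9.08, 9.47 and 9.19, a difference of -0.55. Chrng, the gamma subunit of embryonic and denervated muscle, was detected on 2 wild type arrays and on no knockout array and was at least 1.16-fold lower. Musk, the receptor kinase of the synapse, passed the test but was below background on all 6 arrays, so no fold is given. In denervated muscle the differences were -0.64 for Chrnb1 and -1.57 for Chrng. Of 13 excitation-contraction coupling genes Cacng1, a subunit of the muscle calcium channel, fell (12.94, 13.18 and 12.69 against 12.14, 12.14 and 12.09, 1.76-fold, adjusted p of 0.00507 by limma). Gadd45a, a growth arrest gene induced in denervated muscle, read 10.54, 10.97 and 10.65 against 9.99, 9.50 and 10.02 and was 1.84-fold lower, the only 1 of 9 p53 and growth arrest genes to pass. Of 24 genes of polyamine metabolism and the ATF4 response, Srm, the spermidine synthase, and Oaz2, an antizyme that restrains polyamine synthesis, fell by 0.69 and 0.42, with a list median of -0.04. Cebpd, a transcription factor induced by glucocorticoid, rose by 0.68, the only 1 of 19 FoxO and glucocorticoid response genes to pass (list median -0.03). Bmp4, a secreted growth factor, fell by 0.70.

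**Figure D4:**
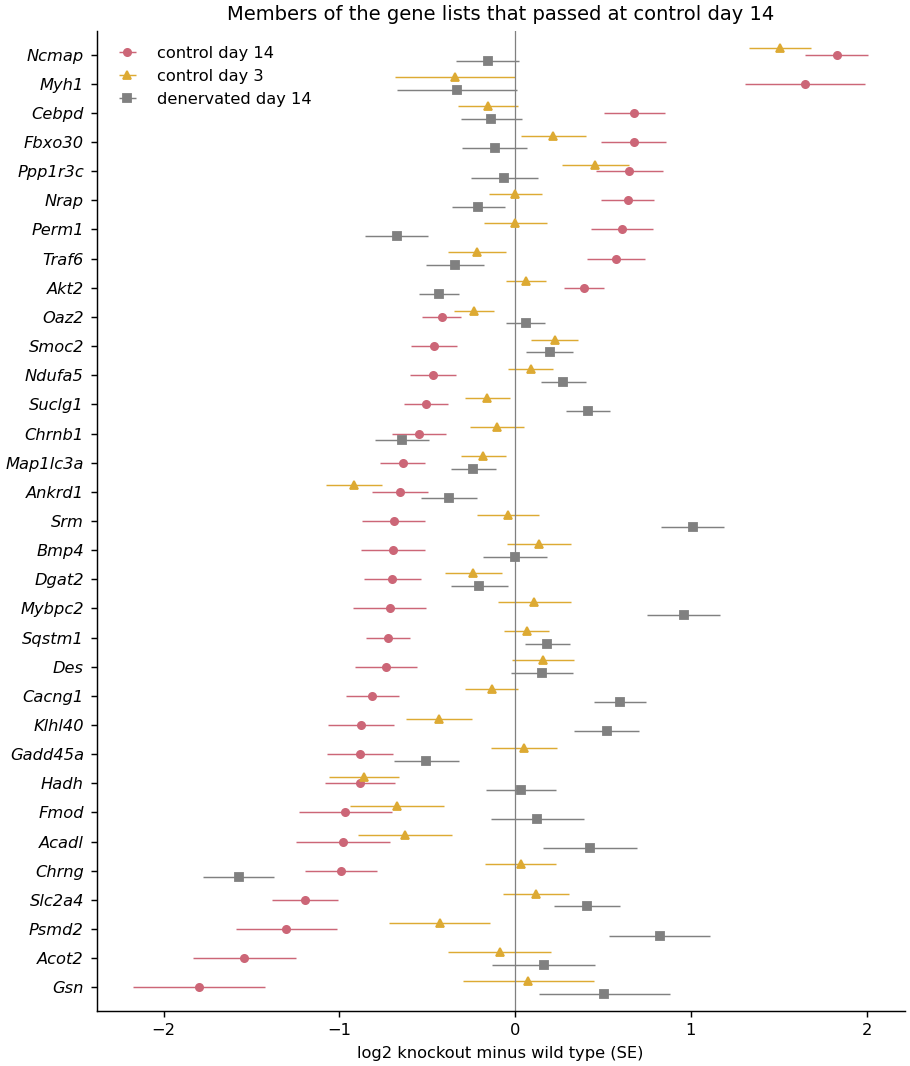
Log2 difference of knockout minus wild type with its SE for the 33 members of the gene lists that passed in day 14 controls, leaving out Trim63 and Musk, with the same genes in day 3 controls (triangles) and in denervated muscle at day 14 (squares). Ncmap and Myh1 were highest and Gsn lowest at day 14, and Ncmap and Ankrd1 were the genes that also passed in the day 3 controls.

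Markers of other cell types are set here against the 5.51% of all genes that passed. None of 19 macrophage and leukocyte genes did (median -0.19), nor any of 15 endothelial or 7 satellite cell markers (both medians 0.04). None of 5 mast cell markers passed, although all 5 differences were below 0 (median -0.42), and none of 6 erythrocyte markers, although all 6 were above 0 (median 0.25). Of 9 fibroblast and adipogenic progenitor markers Gsn and Smoc2 fell (Smoc2 by 0.46), with a list median of 0.03, and of 10 tendon and cartilage markers Fmod fell by 0.97, with a list median of -0.42. Des, which is also expressed in myofibres, fell by 0.73 among 9 smooth muscle and pericyte markers, and Dgat2 by 0.70 among 10 adipocyte markers. Ncmap was the only 1 of 9 Schwann cell and nerve markers to pass, and that list's median was 0.32, with 7 of 9 differences above 0. The lists in which a marker passed hold 9 or 10 tested genes each, so 1 or 2 genes give shares from 10% to 22.2%. In whole muscle fewer cells of a type and less RNA per cell cannot be told apart. No member of the lists of 29 cytosolic ribosomal proteins, 13 chaperones, 24 extracellular matrix, 20 proliferation, 17 immediate-early or 14 clock genes passed. The part of these markers in the changes named above was not tested.

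Among the genes that passed at day 14, the direction of change went with gene span, a feature that the comparison did not use. Genes higher in knockout had a median span from annotated start to end of 49.6 kb and those lower had one of 13.02 kb, against 21.7 kb for all genes tested. With the genes in 10 equal groups by span, 0.353% of the shortest were higher and 2.65% lower, whereas in the ninth group 6.37% were higher and 1.503% lower, and in the longest 5.04% and 0.619%. Across 11311 genes the Spearman correlation of the day 14 difference with span was 0.263, and it was 0.053 in the day 3 controls and -0.149 in denervated muscle, as descriptions over genes that share their arrays. On single arrays, the correlation of span with each gene's deviation from its mean over the 24 arrays was 0.165, 0.156 and 0.152 in the knockout controls of day 14. In the wild type controls of that day it was 0.005, -0.089 and -0.015, so the genotypes did not overlap in it. It also varied among the other arrays. Denervated knockout arrays of day 3 gave -0.097, 0.171 and 0.197. At day 14 denervated wild type arrays gave 0.113, 0.129 and 0.076, and denervated knockout arrays 0.084, -0.056 and 0.005.

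**Figure D5:**
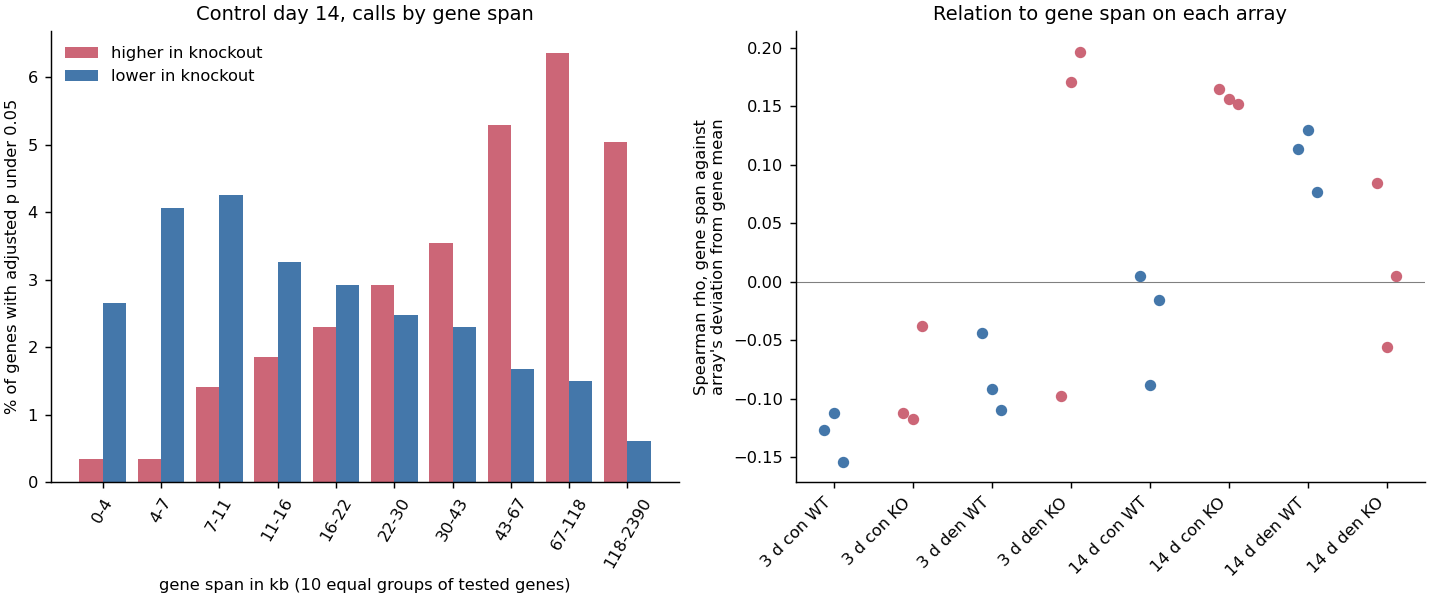
Left, percentage of genes that passed in day 14 controls, higher (red) or lower (blue) in knockout, in 10 equal groups of genes by span in kb. Right, for each of the 24 arrays, the Spearman correlation of gene span with the deviation of each gene from its mean, wild type in blue and knockout in red, where the 3 knockout controls of day 14 lie between 0.152 and 0.165 and the 3 wild type controls between -0.089 and 0.005.

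With that correlation entered as a covariate, chosen after seeing the data and computed from the same arrays, 34 genes passed, 5 higher and 29 lower. Of these, 29 also passed without it, 10 on chromosome 4 and 19 elsewhere. Trim63, Pnrc2, Eya3, E2f2, Gpn2, Serinc2, Pabpc4 and Ncmap of chromosome 4 passed in both fits, as did Slc2a4, Sqstm1, Btbd2 and Ddah1. The median standard error rose from 0.19 to 0.23. The knockout and the relation to span moved together in these 6 arrays, and their parts cannot be told apart. Apart from that covariate, 18 of 68 named genes passed under each setting that gave them a value, including the omission of any of the 6 arrays. These were Trim63, Pnrc2, Eya3, E2f2, Gpn2, Serinc2, Pabpc4, Paqr7, Ahdc1, Txlna, Slc30a2 and Ncmap of chromosome 4, and Arf5, Btbd2, Cacng1, Ddah1, Slc2a4 and Sqstm1 of others. The other 50 lost the call in at least 1 setting.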

How the data were processed

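Total RNA of triceps surae was hybridised, biotin-labelled, to 1-colour Illumina BeadChips, 24 arrays in 8 groups of 3. The deposited non-normalized table holds an intensity and a detection p-value per probe and array, per the file headers; per the submitters' processing notes it came from BeadStudio 3.2.3. The authors' processed values are intensities on a linear scale whose further processing is not given in the sources used here; their array medians lie between 13.2 and 13.4, and they served as an alternative. The aligner and genome build behind the probes are not given in the sources used here.

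Intensities were corrected from the detection p-values (offset 16), quantile-normalized and log2-transformed by neqc in limma 3.58.1 in R 4.3.3. Probes with detection p under 0.05 on at least 3 of 24 arrays were kept (21997). Gene names came from the platform annotation, in which 29976 probes had 1 symbol, 10 several and 16646 none, with 29921 updated by Entrez identifier. The brightest probe per gene gave 11317 genes, 3610 with several kept probes; of 293 genes that passed and had another kept probe, 113 had one of opposite sign. Arrays have no sequencing depth, and 3 per group set the precision (median standard error 0.19). limma fitted 8 group means to 24 arrays (16 residual degrees of freedom, eBayes), two-sided, with Benjamini-Hochberg adjustment over all genes in each of 5 contrasts. The fit was tested on simulated data.

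Folds against a group with no detected array are bounds against the higher, on each array, of the probe's own signal and the dimmest detected one. Named genes are Trim63, the 15 largest rises and 15 largest falls that passed without overlap (predicted gene models and clone names passed over), list members, genes among the 15 annotated on each side of Trim63, genes that passed at both control days, and those of the change between days. The comparison, lists and rules were chosen with earlier results of these data known. Gene order, span and promoters come from RefSeq on GRCm38.p6. Same-numbered samples deviated from their groups with correlations of -0.038, 0.037 and 0.017, so numbers were not taken as pairs.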

Additional observations from a re-analysis of the deposited data

Results flagged for a closer look

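The genotype difference of control muscle itself differed between day 14 and day 3 in 5 genes, by a direct test of the day 14 difference minus the day 3 difference on the log2 scale. It was 1.47 for Ddah1, 1.19 for Nup88 and -1.09 for Pabpn1, each with an adjusted p of 0.0209 by limma. It was -1.65 for Cap1 and 0.92 for Vps26b, with adjusted p of 0.0415 and 0.0475. In Ddah1 the knockout was above wild type at day 14 and slightly below it at day 3, and in Pabpn1 the order was the reverse.

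The genotype difference also differed between denervated and control muscle at day 14 in 39 of 70 genes. The 70 are the named genes that passed at control day 14 or in the change between days. Over all genes the share was 12.5%. The 2 shares cannot be compared, since most of the 70 were chosen on control arrays that enter this difference. The values below are the denervated difference minus the control difference, on the log2 scale. They use the same control arrays that chose many of these genes, so a gene named for a fall in control muscle is drawn towards a positive value and a gene named for a rise towards a negative one. Among contractile and synaptic genes the values were -1.98 for Myh1, 1.67 for Mybpc2, -0.85 for Nrap, 0.89 for Des, 1.41 for Cacng1 and -1.49 for Musk. Among genes of fuel use they were 1.604 for Slc2a4, 1.70 for Acot2, 1.40 for Acadl, 0.92 for Hadh, 0.92 for Suclg1, 0.74 for Ndufa5, -1.66 for Bcat2, -1.45 for Tbc1d1, -1.28 for Perm1 and -0.82 for Akt2. For ubiquitin, proteasome and autophagy genes they were 2.12 for Psmd2, 1.40 for Klhl40, -0.92 for Traf6 and 0.91 for Sqstm1. Genes of the polyamine list, the glucocorticoid list and the fibroblast markers gave 1.70 for Srm, -0.81 for Cebpd, 2.31 for Gsn and 0.66 for Smoc2. On chromosome 4 they were -1.99 for Ncmap, 1.76 for Serinc2, 1.36 for Pabpc4, -0.80 for Txlna and 1.17 for Cap1. The others were 1.75 for Arf5, 2.13 for Btbd2, -1.11 for Ddah1, -1.64 for Gopc, -1.54 for Mfap3l, 0.78 for Pabpn1, -1.53 for Ush1c, -1.79 for Vat1l, -0.83 for Vps26b and 1.77 for Wdfy1. The smallest adjusted p of these by limma was 0.000117, for Ncmap. The values of Musk, Gopc and Ncmap are fitted values that include groups below background on every array (both control groups for Musk, the wild type controls for Gopc, and every group but the knockout controls for Ncmap), so their sizes are not measured.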

How the results depend on the processing

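Trim63 kept its direction and its call under every setting, with differences from -3.91 (offset 50) to -4.65 (median centring). The other counts moved more. With median centring, the genes that passed numbered 258 at control day 14, 26 at control day 3, 1 for the change between days and 520 in denervated muscle. Fitting only the arrays of the groups compared gave 340, 17 and 0 for the first 3 of these and 6 genes on both days; the 0 compares with 1893 genes at an unadjusted p under 0.05 in the fit of all arrays. Array weights gave 1427, 1021, 777 and 2243, with 2611 for denervated against control differences and 121 on both days. With the number of detected probes as a covariate the day 3 count was 93, that of the change between days 102, and those of denervated muscle and of denervated against control differences 1791 and 2410. The relation to gene span as a covariate, added after seeing the data, gave 34, 137, 490 and 82 for day 14, day 3, denervated muscle and the denervated against control difference, and 10 on both days. The change between days had 30 genes with offset 50, 15 when probes had to be detected on at least 12 arrays, 1 with the mean of a gene's probes and 33 with trend and robust fitting. Leaving out 1 replicate of the 6 arrays gave 150 to 464 genes at day 14, 0 to 10 for the change between days, 802 to 1257 for the denervated against control difference and 10 to 16 on both days. A replicate block gave 516 genes at day 14 and 3 for the change between days; the samples share only a number, since same-numbered samples did not deviate together. With the mean of probes Akt2 was -0.035 and no longer passed. The share of the day 14 calls that were higher, 53.4%, was 38.9% with the mean of probes, 14.7% with the span covariate and 42.7% without knockout replicate 1. The cause of these shifts was not tested. The authors' processed values gave 574 genes at day 14.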

Other observations

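A further set of genes, chosen after their values were seen, passed at day 14 both with and without the relation to gene span as a covariate, and are not described above. Thra, the thyroid hormone receptor alpha, read 9.97, 10.12 and 9.98 in wild type and 9.12, 8.86 and 9.15 in knockout. It was 1.97-fold lower, with an adjusted p of 0.00097 by limma. Bckdk, the kinase that restrains branched-chain keto acid oxidation, read 12.29, 12.21 and 12.22 against 11.56, 11.40 and 11.28 and was 1.77-fold lower. The groups of both genes were well apart, and in the day 3 controls their differences were -0.19 and -0.12, neither of which passed.

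Hspbp1, a nucleotide exchange factor of Hsp70, read 8.87, 9.28 and 9.32 against 8.06, 7.89 and 8.21, 2.14-fold lower. Ecsit, an assembly factor of mitochondrial complex I, was 1.87-fold lower and Tmod1, a tropomodulin gene on chromosome 4 whose product caps the pointed end of actin thin filaments, was 1.64-fold lower. Mbd3, a subunit of the NuRD chromatin complex, fell 1.77-fold and Eif3b, a subunit of a translation initiation factor, fell 1.65-fold. Among the few that rose, Pak1ip1 read 6.01, 5.98 and 5.92 against 6.76, 6.77 and 6.77, 1.74-fold higher, and Zfp507 was 1.604-fold higher. In the day 3 controls none of these 9 genes passed, and their differences there lay between -0.20 and 0.14.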
